A study of Mus musculus with 58 samples.

Results

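RNA levels of the immediate early genes were followed in liver and kidney of mice given a chlorinated solvent. The set holds Fos, Fosb, Jun, Junb, Egr1, Atf3, Ier2, Ier3, Klf6 and Myc, taken by symbol from the kidney table and by the same RefSeq identifiers from the liver table, and makes up 10 of the 24122 genes measured. Male B6C3F1/J mice, a hybrid strain, were 5 to 6 weeks old on receipt and received a single intragastric dose of tetrachloroethylene (PCE), trichloroethylene (TCE) or vehicle. PCE carries chlorine at the position where TCE carries hydrogen. PCE was given at 30, 100, 300 or 1000 mg/kg and TCE at 24, 80, 240 or 800 mg/kg, which the labels equate with about 0.22, 0.67, 2 and 6 mmol/kg. All control mice received the vehicle, a saline solution with 5% of the surfactant Alkamuls EL-620, at 5 mL/kg, and each chemical had its own vehicle group. A strain label names C57BL/6 where the protocol names B6C3F1/J. No source used here states how long after dosing the tissues were taken. The 58 libraries form 20 groups, of which 18 hold 3 libraries. The PCE vehicle group in kidney and the 0.67 mmol/kg PCE group in liver hold 2 libraries each.

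Immediate early genes are transcribed within minutes of a growth factor, stress or handling stimulus, without new protein synthesis, and their RNAs are short-lived. Fos, Fosb, Jun and Junb encode subunits of the AP-1 transcription factor, and Atf3 encodes a stress-induced relative. Egr1 and Klf6 encode zinc finger transcription factors, Ier2 and Ier3 encode regulators of transcription and of cell survival, and Myc encodes a driver of cell growth. In liver several of them respond early to partial hepatectomy and to injury.

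Sequencing gave 23247565 to 32420329 counts per kidney library and 30932385 to 125880542 per liver library. By design the liver vehicle and 6 mmol/kg libraries were deeper, at 88048143 to 125880542 counts, than the other liver libraries, at 30932385 to 65112568. The hepatocyte markers Alb, Apoa1, Ttr and Serpina1a summed to a median of 162000 CPM (counts scaled to a common library total) in liver libraries and 257 CPM in kidney libraries. The proximal tubule markers Lrp2, Slc34a1, Slc5a2 and Kap summed to 3.76 CPM in liver and 42000 CPM in kidney. The tissues therefore matched their labels. In bulk tissue, fewer cells of a type and less RNA per cell cannot be told apart.

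Promoter sequence is shown for 3 members whose levels varied together between replicate libraries of kidney, as described further on, and which share a short motif. The 250 bases before the RefSeq start are given 5′ to 3′ on the gene's strand (GRCm38.p6), with the CRE core TGACG, part of the element bound by CREB and ATF factors, in capitals on either strand.
Fos, chr12:85473640-85473889, plus strand: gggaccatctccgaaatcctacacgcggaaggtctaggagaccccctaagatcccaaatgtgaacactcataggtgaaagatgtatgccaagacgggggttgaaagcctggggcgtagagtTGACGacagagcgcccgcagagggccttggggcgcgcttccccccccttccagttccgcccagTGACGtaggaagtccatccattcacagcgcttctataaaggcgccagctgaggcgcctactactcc
Junb, chr8:84978749-84978998, minus strand: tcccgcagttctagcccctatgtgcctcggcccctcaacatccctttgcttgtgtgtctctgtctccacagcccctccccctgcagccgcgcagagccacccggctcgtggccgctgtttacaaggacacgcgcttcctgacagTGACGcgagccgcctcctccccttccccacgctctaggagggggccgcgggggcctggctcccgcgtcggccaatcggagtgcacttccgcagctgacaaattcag
Atf3, chr1:191183334-191183583, minus strand: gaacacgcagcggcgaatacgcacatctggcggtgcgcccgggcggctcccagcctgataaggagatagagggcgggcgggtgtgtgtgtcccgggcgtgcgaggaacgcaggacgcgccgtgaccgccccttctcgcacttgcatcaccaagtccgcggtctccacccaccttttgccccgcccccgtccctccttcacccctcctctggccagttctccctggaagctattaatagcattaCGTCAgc

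Counted from the annotated RefSeq start, the CRE core lay at −129 to −125 and at −66 to −62 in Fos, at −106 to −102 in Junb and at −7 to −3, as CGTCA, in Atf3. The start of transcription in these tissues was not measured. Fosb, whose sequence is not shown, held it at −60 to −56. The Fosb window, chr7:19310046-19310295 on the minus strand, overlaps the gene span used here, which ends at 19310118. This match lies inside that span, so for Fosb the position is counted from a start within it. No match stood in the 250 bases before the start of Jun, Ier3 or Klf6. Of these, Jun and Ier3 also varied with Fos in kidney. Whether the motif bears on the shared variation was not tested. The CRE core was present in 17.8% of the 32851 mouse promoters searched over the same length. GC content was 58.4% in the Fos window, 66.4% in Junb and 65.2% in Atf3, against a median of 52.4% over all promoters. A TATA box (TATAAA) lay at −33 to −28 in Fos, against 12.4% of all promoters with that motif. The GC box GGGCGG was found on either strand in Fos, Fosb, Jun, Atf3, Ier3 and Klf6, and in 32.7% of all promoters. The AP-1 site TGANTCA, found in 6.7% of promoters, and the CArG box, the serum response element core found in 1.5%, had no match in these windows. The promoters of Ier2 and Myc are named here without sequence. A match is a description of letters and not a measured binding site.

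Of the 10 genes, 9 had reads in every one of the 58 libraries and passed the filter on low counts in both tissues. Myc (chromosome 15, 61985341 to 61990361) was the exception. Its 4 RefSeq transcripts were listed at 0 in all 58 libraries. HTSeq leaves reads that match several features unassigned, as it did for 19.68 to 22.55% of the reads per library, so this 0 cannot be read as absence of the RNA. Whether Myc reads are among them was not tested. Across protein-coding genes with 4 or more transcripts, 11.9% were listed at 0 in all libraries, against 7.7% of those with 2 or more and 12.7% of those with 1 transcript. These shares do not show which reads were set aside. The other 9 members have 1 transcript each. Jun overlaps the antisense gene Junos and Junb overlaps Prdx2 on the opposite strand. The strand setting of the counting was not given, so their levels may include or have lost reads of the overlap.

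Per kilobase of transcript, the highest median level in liver belonged to Ier2, at 42.8 CPM per kb, and the next to Jun, at 41.2 CPM per kb. Egr1 (22.4 CPM per kb) and Junb (19.7 CPM per kb) followed, and then Fos (3.41), Klf6 (1.84), Atf3 (1.58), Ier3 (1.13) and Fosb (0.11), each a median in CPM per kb over 29 libraries. In kidney Ier3 stood highest at 17.8 CPM per kb, followed by Jun (15.2), Junb (9.12), Egr1 (8.47), Ier2 (8.31), Klf6 (4.77), Fos (4.1), Atf3 (0.807) and Fosb (0.19), again as medians in CPM per kb over 29 libraries. In both tissues the range of every member over the libraries overlapped that of its neighbour in this order.

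**Figure D1:**
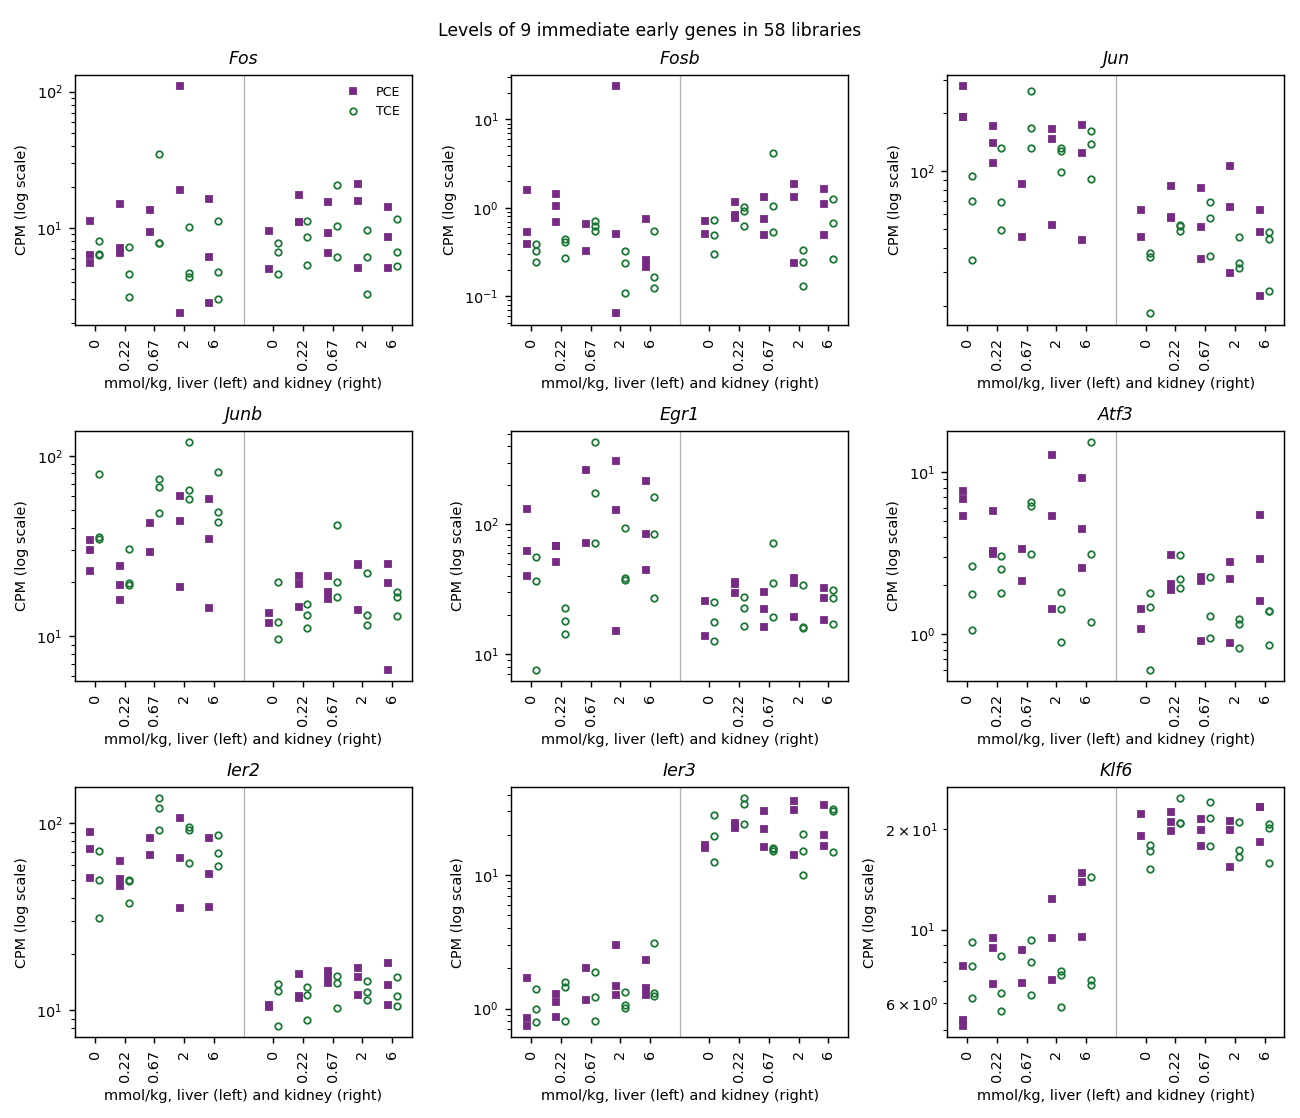
Level of 9 immediate early genes in each of the 58 libraries, in CPM on a log axis, by dose in mmol/kg, with liver left and kidney right of the grey line (filled squares PCE and its vehicle, open circles TCE and its vehicle). Ier3 and Klf6 lie higher in kidney, Ier2 lies higher in liver, and the liver values of Fos and Fosb at 2 mmol/kg PCE run between 2.36 and 110 CPM and between 0.0638 and 24 CPM.

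The first comparison set liver against kidney in vehicle-treated mice, to show where the genes stood before any solvent. The 9 members split into 3 kinds. Ier2, Jun, Junb, Egr1 and Atf3 were higher in liver, Ier3 and Klf6 were lower in liver, and Fos and Fosb did not pass the test. Of the 9 members 7 passed at a Benjamini-Hochberg adjusted p under 0.05 (edgeR quasi-likelihood test, adjusted over all 14949 genes), where 72.9% of all genes did, so this share is near the background. Every liver library lay above every kidney library for 2 members, as for 24.6% of all genes. For 2 members every liver library lay below, as for 28.7% of all genes.

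Ier3 (chromosome 17, 35821713 to 35822911) had a lowest, median and highest level of 0.742, 0.922 and 1.68 CPM in the 6 liver vehicle libraries, against 12.6, 28.1, 19.6, 16.7 and 16.0 CPM in the 5 kidney vehicle libraries. The groups did not overlap, and the log2 difference was −4.08 ± 0.30 (SE; edgeR adjusted p = 3.48e-16). Klf6 (chromosome 13, 5861489 to 5870393) had 5.14, 7.01 and 9.19 CPM as its lowest, median and highest level in liver, against 15.2, 17.2, 18.0, 22.3 and 19.1 CPM in kidney. Every liver library lay below every kidney library, with a log2 difference of −1.44 ± 0.16 (edgeR adjusted p = 1.37e-10).

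Ier2 (chromosome 8, 84661331 to 84662852) ran the other way, with 31.1, 61.3 and 89.8 CPM as lowest, median and highest level in liver, against 12.6, 8.25, 13.8, 10.7 and 10.4 CPM in kidney. Again the groups did not overlap, with a log2 difference of 2.45 ± 0.24 (edgeR adjusted p = 1.73e-12). Junb (chromosome 8, 84976909 to 84978748) had 22.9, 34.3 and 79.7 CPM in liver and 9.71, 12.0, 19.9, 11.8 and 13.5 CPM in kidney. All its liver libraries stood above the kidney libraries, and the log2 difference was 1.52 ± 0.33 (edgeR adjusted p = 7.91e-05). Jun (chromosome 4, 95049036 to 95052222; log2 difference 1.57 ± 0.35), Atf3 (chromosome 1, 191170296 to 191183333; 1.45 ± 0.48) and Egr1 (chromosome 18, 34861207 to 34864956; 1.42 ± 0.54) were higher in liver with overlapping ranges (edgeR adjusted p = 0.000111, 0.00666 and 0.0187). Egr1 spanned 7.61 to 132 CPM in the liver libraries and 12.6 to 25.7 CPM in the kidney libraries.

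Fos (chromosome 12, 85473890 to 85477274) averaged 7.32 ± 2.13 CPM in liver (SD, n = 6) and 6.68 ± 1.99 CPM in kidney (SD, n = 5). Its log2 difference of 0.11 ± 0.54 did not pass and has a 95% interval of −0.98 to 1.20. Fosb (chromosome 7, 19302696 to 19310118), at 0.582 ± 0.514 CPM in liver and 0.546 ± 0.173 CPM in kidney, did not pass either (−0.10 ± 0.70). The call for Egr1 was lost without liver TCE vehicle replicate 2 (1.12, edgeR adjusted p = 0.0672), liver PCE vehicle replicate 2 (1.11, 0.0714) or kidney PCE vehicle replicate 1 (1.24, 0.0942). With each library's slopes of log2 CPM on transcript length and GC content as covariates, Ier2, Ier3 and Klf6 kept their calls and 3 members in all passed. Under that setting the log2 difference was 1.01 for Jun (edgeR adjusted p = 0.15), 1.32 for Junb (0.0508), 1.58 for Egr1 (0.161) and 1.61 for Atf3 (0.089). These estimates stayed positive, but the calls were lost.

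**Figure D2:**
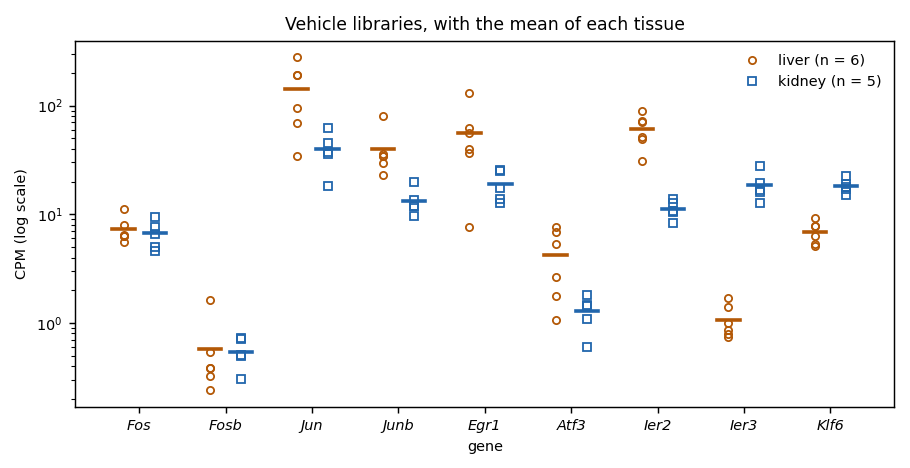
Level of the 9 members in the vehicle libraries, in CPM on a log axis, with 6 liver libraries (circles) left of 5 kidney libraries (squares) for each gene and a bar at each mean. Liver and kidney libraries do not overlap for Ier2, Ier3, Junb and Klf6, as for 24.6% of all genes with liver above and 28.7% with liver below. Fos averages 7.32 CPM in liver and 6.68 CPM in kidney.

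The main question of the design was how the genes respond to dose. In 16 comparisons, each dose was set against the matching vehicle group. Klf6 in liver at 6 mmol/kg PCE was the single member called by edgeR among 144 member tests, while 22 of them (15.3%) had an unadjusted p under 0.05, against 9.53% of all gene tests in these comparisons. DESeq2 called the same member in the same comparison and no other member in any of the 16.

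Klf6 had 13.9, 9.48 and 14.8 CPM in liver at 6 mmol/kg PCE, against 5.14, 7.77 and 5.35 CPM in the PCE vehicle group. All 3 dosed libraries lay above all 3 vehicle libraries, as for 14.1% of all tested genes. Klf6 rose by 1.09 ± 0.26 on the log2 scale (edgeR adjusted p = 0.0196), in a comparison that called 5.84% of 13174 genes, so 1 of 9 members is near the background. With length and GC slopes as covariates the change was 1.10 with adjusted p = 0.17, and with only the groups compared in the fit it was 1.07 with adjusted p = 0.126. Without PCE vehicle replicate 1 it was 0.99 (adjusted p = 0.0696), without dose replicate 1 it was 1.03 (0.108) and without dose replicate 3 it was 0.97 (0.0734). Over the 14 alternatives the change lay between 0.90 and 1.27. Per library, the slope of log2 CPM per 10 percentage points of GC was −0.226, −0.186 and −0.350 in the dosed group, against 0.031, 0.201 and −0.008 in the vehicle group, and the Klf6 transcript has a GC content of 42.4%.

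Of the markers of other cell types, 3 passed the test at that dose. The fibroblast and stellate markers Dcn, Col1a1 and Lrat summed to 41.5 to 58.3 CPM with PCE, against 20.9 to 35.5 CPM in vehicle, and 1 of 3 rose (Dcn, 1.30 ± 0.26). The macrophage markers Adgre1, Csf1r, Cd68 and Clec4f summed to 111 to 219 CPM with PCE and to 62.1 to 223 CPM in vehicle, and 1 of 4 rose (Adgre1, 1.42 ± 0.41), although the summed levels overlap. The proximal tubule markers summed to 0.212 to 1.65 CPM with PCE, against 2.72 to 4.66 CPM in vehicle. Of the 3 tested, 1 fell, the endocytic receptor gene Lrp2 (−1.73 ± 0.49, edgeR adjusted p = 0.0401). None of the fibroblast, stellate and macrophage markers was at 0 in all liver libraries. Their part in the Klf6 result was not tested.

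Across the PCE doses in liver Klf6 was at 5.14, 7.77 and 5.35 CPM in vehicle and at 6.87, 8.78 and 9.41 CPM at 0.22 mmol/kg. It was at 6.91 and 8.69 CPM at 0.67 mmol/kg and at 9.42, 7.05 and 12.4 CPM at 2 mmol/kg. The trend over dose rank was 0.23 ± 0.05 log2 per rank (edgeR adjusted p = 0.0121), where 12.6% of 12397 genes were called, and no other member passed. This trend was not called with length and GC slopes as covariates (adjusted p = 0.215) or without 6 mmol/kg replicate 3 (0.0507). With TCE in liver Klf6 had 7.04, 14.4 and 6.82 CPM at 6 mmol/kg, against 9.19, 7.78 and 6.25 CPM in vehicle, with 1 dosed library above the rest (0.29 ± 0.26, edgeR adjusted p = 0.769). In kidney at 6 mmol/kg it differed by 0.08 ± 0.16 with PCE and 0.18 ± 0.14 with TCE, and neither passed.

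**Figure D3:**
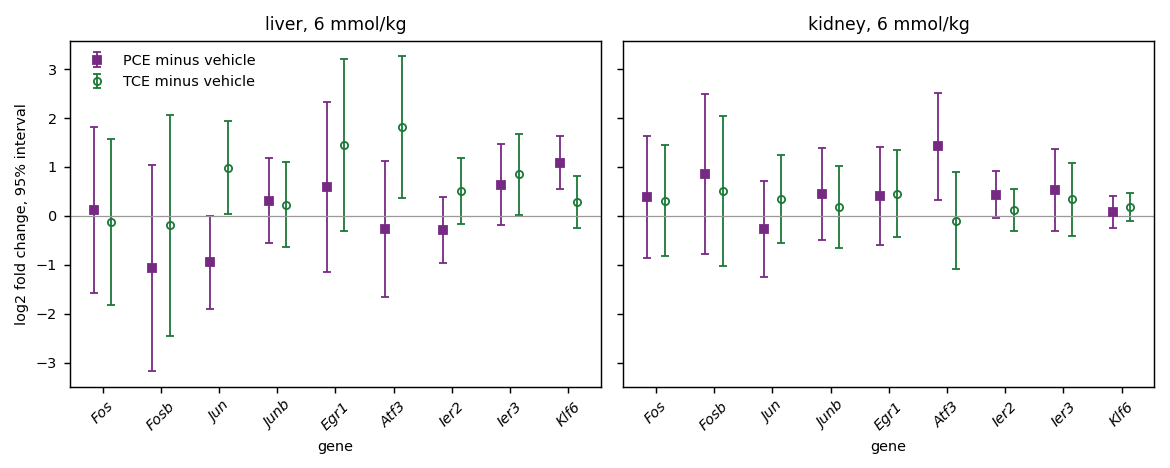
Log2 fold change of the 9 members at 6 mmol/kg against vehicle, with 95% intervals from the edgeR fit, in liver and kidney (filled squares PCE, open circles TCE; 3 dosed libraries against 3, or 2 for PCE in kidney). Klf6 in liver with PCE, at 1.09, is the single value that passed after adjustment, and the interval of Fosb in liver with PCE runs from −3.17 to 1.05.

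The AP-1 subunit genes gave wide intervals in liver at 6 mmol/kg PCE. Fos had 6.09, 2.81 and 16.2 CPM in liver with PCE, against 6.29, 5.57 and 11.3 CPM in vehicle, and the lowest and highest of these 6 libraries were both dosed. Its log2 change was 0.12 with a 95% interval of −1.58 to 1.81. Fosb had 0.212, 0.257 and 0.748 CPM with PCE, against 0.388, 0.538 and 1.61 CPM in vehicle, and the groups overlap. Its change was −1.06 with an interval of −3.17 to 1.05 (edgeR adjusted p = 0.531). Junb had 34.8, 14.3 and 57.4 CPM with PCE, against 29.9, 34.1 and 22.9 CPM in vehicle, with both the lowest and the highest library in the dosed group (0.31, interval −0.56 to 1.19, edgeR adjusted p = 0.668). Jun had 124, 44.0 and 173 CPM in liver with PCE, against 192, 191 and 278 CPM in vehicle. All dosed libraries were below the vehicle libraries, as for 16.4% of all tested genes, but the change of −0.95 ± 0.46 did not pass (edgeR adjusted p = 0.198). Jun also lay below all its vehicle libraries at 0.22, 0.67 and 2 mmol/kg PCE, as did 4.55, 9.86 and 8.94% of all genes. With TCE, Jun had 90.8, 139 and 162 CPM at 6 mmol/kg, against 69.7, 94.4 and 34.7 CPM in vehicle (0.98 ± 0.46, edgeR adjusted p = 0.404). Both vehicle groups had received the same vehicle, and their Jun levels did not overlap.

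Atf3, which cells raise under many stresses, had the largest change of the members in kidney at 6 mmol/kg PCE. It was at 1.60, 5.46 and 2.93 CPM, against 1.08 and 1.43 CPM in vehicle. The dosed libraries lay above the vehicle libraries, as for 15.5% of all tested genes. The log2 change of 1.42 ± 0.53 did not pass (edgeR adjusted p = 0.15), in a comparison with 3.83% of 14216 genes called. With both kidney vehicle groups pooled it was called (1.39, adjusted p = 0.0229). In liver at 6 mmol/kg TCE, where 1.31% of genes were called, Atf3 was at 1.19, 15.3 and 3.11 CPM against 1.77, 2.65 and 1.06 CPM in vehicle. A single dosed library stood far above the others, and the change of 1.82 ± 0.70 did not pass (edgeR adjusted p = 0.257). In kidney at 6 mmol/kg TCE, 0.176% of genes were called and the members ranged from −0.10 (Atf3) to 0.50 (Fosb).

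Several members stood higher at 0.67 mmol/kg TCE in liver without passing the test. Ier2 was at 91.5, 121 and 136 CPM, against 71.4, 49.8 and 31.1 CPM in vehicle (1.23 ± 0.33, edgeR adjusted p = 0.326). Egr1 was at 72.5, 431 and 175 CPM against 36.7, 56.4 and 7.61 CPM (2.77 ± 0.89, edgeR adjusted p = 0.429). Jun, at 132, 168 and 263 CPM against 69.7, 94.4 and 34.7 CPM, differed by 1.52 ± 0.47 (edgeR adjusted p = 0.408). Every dosed library lay above every vehicle library for 5 of the 9 members, namely Ier2, Egr1, Jun, Atf3 and Fosb, as for 2.82% of all tested genes. The test itself called 0.00759% of genes in this comparison, and no member. The 9 members had a median log2 change of 1.23 there, against −0.01 over all 13174 genes. An unadjusted edgeR p under 0.05 was found for 4 of the 9 members and for 1054 of the 13174 genes. These libraries belong to the shallower liver group, while their vehicle libraries belong to the deeper one. The liver PCE vehicle group had received the same vehicle. It had 191 to 278 CPM for Jun, 40.1 to 132 for Egr1, 5.37 to 7.69 for Atf3 and 0.388 to 1.61 for Fosb. All of these ranges overlapped those of the dosed TCE libraries. For Ier2 that group, at 51.2 to 89.8 CPM, lay below the dosed libraries.

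In kidney at 0.22 mmol/kg PCE all 9 members had a positive log2 change, with a median of 0.56 against −0.01 over all genes. For 7 of the 9 the 3 dosed libraries lay above the 2 vehicle libraries, as for 14.8% of all tested genes. Fos, for example, had 11.0, 11.0 and 17.4 CPM with PCE, against 4.97 and 9.45 CPM in vehicle (0.87 ± 0.61, edgeR adjusted p = 0.857). The test called 0% of genes in that comparison, and no member reached an unadjusted p under 0.05. Most members vary together between kidney libraries, as described further on, so the 7 of 9 are not independent. The kidney TCE vehicle group, given the same vehicle, reached 19.9 CPM for Junb, 13.8 for Ier2 and 28.1 for Ier3. The lowest dosed levels of these genes were 14.6, 11.6 and 22.5 CPM. For Fos, Fosb, Egr1 and Atf3 that group stayed below all dosed libraries. Summed markers of some listed cell types also lay apart in this comparison. Those of hepatocytes, proximal tubule, thick ascending limb and collecting duct, macrophages, neutrophils and red cells overlapped. Endothelium markers summed to 35.0 to 58.7 CPM with PCE, against 29.8 to 32.3 CPM in vehicle, with a median change of 0.71 over 3 genes. Fibroblast and stellate markers summed to 22.7 to 34.1 CPM with PCE, against 16.2 to 21.6 CPM in vehicle (median 0.65 over 3). Adrenal and brown fat markers summed to 14.7 to 55.5 CPM with PCE, against 3.84 to 10.7 CPM in vehicle (median 1.75 over 4). Krt19, Krt7 and Epcam, listed as cholangiocyte markers, summed to 111 to 133 CPM with PCE, against 106 to 108 CPM in vehicle (median 0.32 over 3). Their summed median was 113 CPM in kidney libraries and 4.45 CPM in liver libraries, so in kidney they do not mark that cell type. No single marker passed the test, and their part in the members' values was not tested. In the other dose comparisons 0 to 3 members had all dosed libraries above all vehicle libraries, where the share of all genes ran from 2.66 to 16.7%. There 0 to 2 members had all dosed libraries below, where the share of all genes ran from 2.71 to 16.7%.

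In liver at 2 mmol/kg PCE, where 0.182% of genes were called, Fos had 19.1, 2.36 and 110 CPM, against 6.29, 5.57 and 11.3 CPM in vehicle. The dosed libraries thus held both the lowest and the highest Fos level of the 29 liver libraries. The log2 change was 2.48 ± 0.86 (edgeR adjusted p = 0.241), and without dose replicate 3 it was 0.47. Fosb had 0.503, 0.0638 and 24.0 CPM there, against 0.388, 0.538 and 1.61 CPM in vehicle. Its change of 3.23 ± 1.04 (edgeR adjusted p = 0.192) became −1.58 without dose replicate 3. With both liver vehicle groups pooled, Fos (2.57, adjusted p = 0.0446) and Fosb (3.77, adjusted p = 0.021) were called.

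The remaining dose comparisons called no member, and few genes of any kind. In liver the shares of genes called were 0% at 0.22 mmol/kg TCE, 0.00759% at 2 mmol/kg TCE and 0.00759% at both 0.22 and 0.67 mmol/kg PCE. In kidney they were 0% at 0.22 and 2 mmol/kg TCE, 0.00703% at 0.67 mmol/kg TCE, 0% at 0.67 mmol/kg PCE and 0.0141% at 2 mmol/kg PCE. In kidney at 0.67 mmol/kg TCE, Egr1 was at 19.5, 35.7 and 72.4 CPM against 12.6, 17.6 and 25.1 CPM in vehicle (1.21 ± 0.43, edgeR adjusted p = 0.288), with 1 dosed library far above the rest. Adrenal and brown fat markers summed to 2.79 to 1950 CPM in these dosed libraries, against 5.09 to 6.28 CPM in vehicle. Whether adrenal or brown fat tissue was carried over, and its part in the members' values, was not tested. The trend tests called no member for TCE in liver (0.864% of genes), TCE in kidney (0.0523%) or PCE in kidney (3.48%). Across all 4 trends 2 member tests of 36 (5.56%) had an unadjusted p under 0.05, against 17.8% of all gene tests, and DESeq2 called Klf6 in liver with PCE alone.

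PCE and TCE, which differ by 1 substituent, were compared at equal molar dose as the difference of their responses, in 8 comparisons of 9 members. Adjusted over all genes, edgeR called 0 of 72 member tests, with 12 (16.7%) at an unadjusted p under 0.05, against 7.47% of all gene tests. The shares of all genes called were 0% at 0.22, 2 and 6 mmol/kg and 0.0228% at 0.67 mmol/kg in liver, and 0% at 0.22, 0.67 and 2 mmol/kg and 0.0211% at 6 mmol/kg in kidney. DESeq2 called 1 member test, Jun in liver at 0.67 mmol/kg. There Jun had 85.6 and 45.7 CPM with PCE against 192, 191 and 278 CPM in its vehicle group, while with TCE it had 132, 168 and 263 CPM against 69.7, 94.4 and 34.7 CPM.

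The response of Jun to PCE minus that to TCE was −3.27 at that dose, with a 95% interval of −4.76 to −1.78 (edgeR adjusted p = 0.131, DESeq2 adjusted p = 0.00262). Set directly against TCE without the vehicle groups, PCE gave −1.53 (edgeR adjusted p = 0.492). Without TCE vehicle replicate 2 the difference was −3.65 with adjusted p = 0.0228. At 6 mmol/kg the responses of Klf6 in liver differed by 0.80 with a 95% interval of 0.04 to 1.55 (edgeR adjusted p = 0.551). Those of Fos in liver differed by 0.24 with an interval of −2.16 to 2.65, which leaves differences of several-fold in either direction possible. In kidney Atf3 differed by 1.52 (0.05 to 2.98, edgeR adjusted p = 0.641).

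The liver response minus the kidney response at 6 mmol/kg was tested in a fit of all 58 libraries. It called no member for PCE (0.709% of 14949 genes) or TCE (0.328%) in edgeR, with 2 of 18 member tests (11.1%) at an unadjusted p under 0.05, against 11.2% of all gene tests, and DESeq2 called no member. Klf6 had the smallest adjusted p for PCE, with a difference of 1.00 ± 0.32 and an interval of 0.35 to 1.66 (edgeR adjusted p = 0.137). For TCE it was Atf3, at 1.93 ± 0.88 (edgeR adjusted p = 0.495).

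Related genes were counted from 6 lists, namely AP-1 relatives, EGR and NR4A factors, feedback inhibitors, other rapidly induced genes, upstream kinases and factors, and MYC partners. Of 79 listed genes 65 were tested at 6 mmol/kg. With PCE in liver 2 rose and 1 fell, or 4.62% of the 65, which is near the 5.84% of all genes called there. Zfp36l2, an RNA-decay factor, rose by 1.02 ± 0.29 (edgeR adjusted p = 0.0426), the kinase gene Mapk8 by 0.47 ± 0.12 (0.0269), and Ccn1, a matricellular protein gene, fell with −1.51 ± 0.45 (0.0498). With TCE in liver 1 rose and 1 fell, or 3.08%, against 1.31% of all genes. Klf10, a transforming growth factor beta early response factor, rose by 2.31 ± 0.53 (edgeR adjusted p = 0.0298), and Nfil3, a transcriptional repressor, fell with −0.85 ± 0.20 (0.033).

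With PCE in kidney 2 rose, Klf10 by 1.02 ± 0.26 (edgeR adjusted p = 0.0239) and Mnt, a MAX-binding repressor, by 0.47 ± 0.12 (0.0326). These are 3.08% of the 65, near the 3.83% of all genes called there. With TCE in kidney edgeR called none of the 65, where 0.176% of all genes were called. The feedback inhibitors, which include Dusp and Zfp36 family genes, had 19 of 19 members tested and a median change of 0.11 with PCE and 0.27 with TCE in liver, against medians of 0 and −0.04 over all genes. In kidney their medians were 0.33 with PCE and −0.02 with TCE, against 0.03 and 0.01 over all genes.

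Most members varied more between replicates of a group than the median gene did. The spread, as the SD of log2 CPM around group means, was in liver 1.44 for Fosb, 1.22 for Egr1, 1.17 for Fos and 0.93 for Atf3, against a median of 0.33 over 13174 genes. These members exceeded 99.8, 99.3, 99.1 and 96.8% of tested genes. Jun (0.63), Junb (0.57), Ier3 (0.50) and Ier2 (0.44) stood between, and Klf6 (0.32) was below the median gene. In kidney the SD was 0.89 for Fosb, 0.69 for Fos, 0.61 for Atf3, 0.56 for Jun, 0.54 for Egr1 and 0.52 for Junb, against a median of 0.20 over 14216 genes. Klf6 was again lowest, at 0.18.

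The range over single libraries shows the same. Fos ran from 2.36 to 110 CPM over the 29 liver libraries, a 46.6-fold range with a median of 7.18 CPM, and from 3.27 to 20.9 CPM over the kidney libraries. Egr1 ran from 7.61 to 431 CPM in liver and from 12.6 to 72.4 CPM in kidney. Klf6 ran from 5.14 to 14.8 CPM in liver and from 15.2 to 24.8 CPM in kidney.

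**Figure D4:**
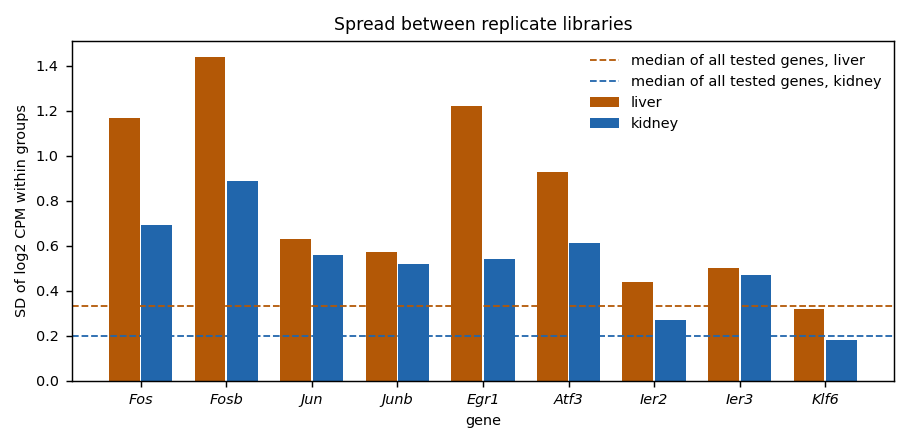
Spread between replicate libraries as the SD of log2 CPM within groups, for 9 members in liver (left bar) and kidney (right bar), with dashed lines at the median of all tested genes. Fosb, Egr1 and Fos reach 1.44, 1.22 and 1.17 in liver, where the median gene is at 0.33, and Klf6 is at 0.32.

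To see whether the members varied together, each library's deviation from its group mean was compared with that of Fos, in 16 relations over 29 libraries a tissue. In kidney, Fosb and Egr1 followed Fos most closely. For Fosb, Pearson's r was 0.92 and Spearman's rho 0.92, and Egr1 had r = 0.91 and rho = 0.90. Each had a permutation p of 1e-05, the smallest that 100000 permutations can give, and an adjusted p of 8e-05. Atf3 (r = 0.78, rho = 0.78), Junb (0.77 and 0.78), Jun (0.68 and 0.62), Ier3 (0.67 and 0.57) and Ier2 (0.58 and 0.55) passed too, with permutation p of 0.00586 or less for r and adjusted p of 0.0117 or less. Klf6 did not (r = 0.43, rho = 0.40, permutation p = 0.0927 and 0.106). Without the 2 libraries farthest from the median of Fos, r was 0.90 for both Fosb and Egr1 and 0.52 to 0.72 for the others that passed.

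In liver, Fosb had r = 0.81 and rho = 0.48 (permutation p = 0.00476 and 0.0394, adjusted p = 0.0109 and 0.0525), and r was 0.50 without the 2 farthest libraries, replicates 2 and 3 of 2 mmol/kg PCE. Junb had r = 0.62 and rho = 0.59 (permutation p = 0.0154 and 0.00835, adjusted p = 0.0246 and 0.0195), and 0.61 without those libraries. Klf6 (r = 0.58, rho = 0.51, adjusted p = 0.019 and 0.0472) and Jun (r = 0.57, rho = 0.55, adjusted p = 0.0288 and 0.0218) passed as well by permutation, with r of 0.49 and 0.50 without them. Egr1 (r = 0.59, rho = 0.52, permutation p = 0.05 and 0.0273, adjusted p = 0.0667 and 0.0438) passed for rho alone. Atf3 (r = 0.57, rho = 0.26), Ier2 (0.44 and 0.35) and Ier3 (0.11 and −0.09) did not pass, with permutation p of at least 0.0573. Whether the correlations differ between the tissues was not tested.

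**Figure D5:**
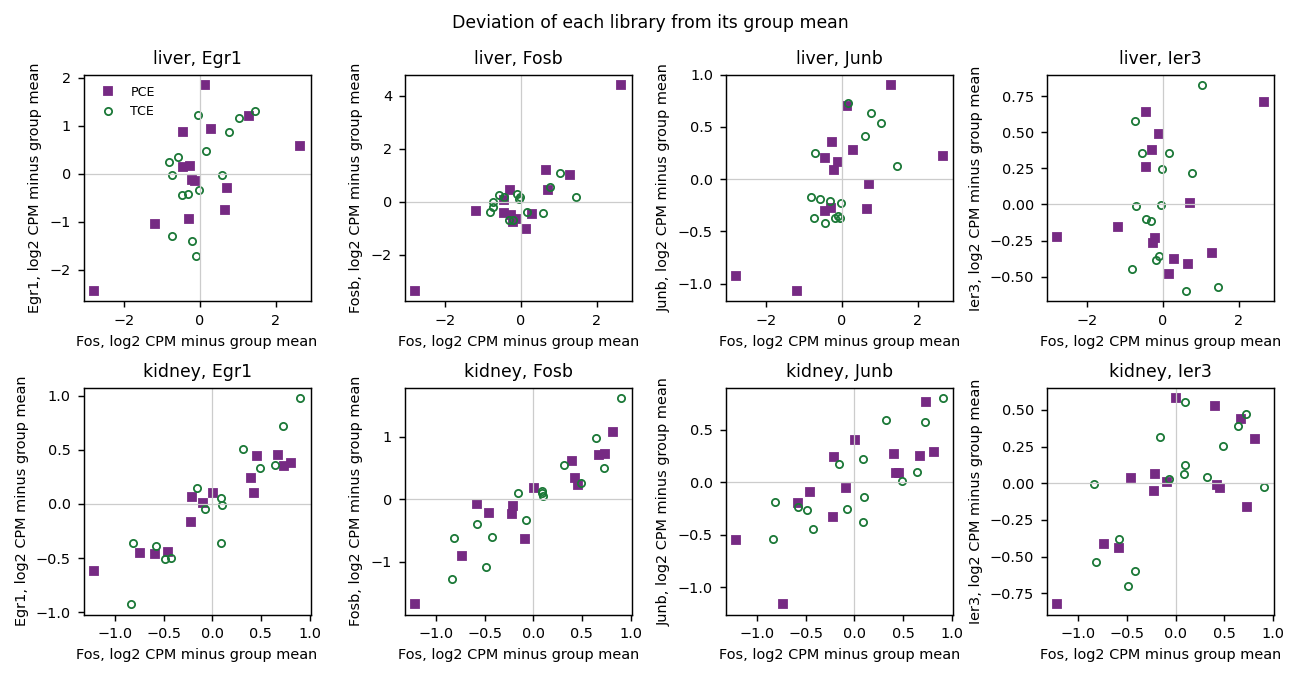
Deviation of each library from its group mean in log2 CPM, Fos on the x axis and Egr1, Fosb, Junb or Ier3 on the y axis, for 29 liver libraries (top) and 29 kidney libraries (bottom; filled squares PCE and its vehicle, open circles TCE and its vehicle). In kidney Egr1 and Fosb follow Fos (r = 0.91 and 0.92), while in liver the points for Fosb at both ends belong to 2 mmol/kg PCE and Ier3 shows r = 0.11.

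The genes most like Fos by the same r were ranked over all tested genes, and those with predicted or no names were left off the list. In kidney the 10 highest named genes were Fosb, Egr1, Btg2 (r = 0.88), Nr4a1 (0.85), Atf3, Junb, Sh2d5 (0.76), Hivep2 (0.75), Cd274 (0.74) and Kdm6a (0.74), so 4 of them were members. The median gene of 14215 had r = 0.02. In liver they included Egr2 (0.84), Btg2 (0.84), Fosb, Wif1 (0.70), Sspn (0.69), Enc1 (0.69), Tmem151a (0.68), Tgfb3 (0.66) and Elovl7 (0.66). Without the 2 farthest libraries Btg2 and Egr2 kept r of 0.83 and 0.81 in liver, while Tgfb3 and Elovl7 had 0.19 and 0.23.

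Liver and kidney libraries carry the same numbers in their titles for 28 pairs, though the labels do not say that such a pair comes from 1 mouse. The relation of Fos deviations across the pairs did not pass (r = 0.08, rho = −0.01, permutation p = 0.847 and 0.984), and r was 0.01 without the 2 farthest pairs. None of the 9 members passed after adjustment, with the smallest adjusted p at 0.634 for the rho of Fosb (r = 0.31, rho = 0.43, permutation p = 0.556 and 0.0704).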

How the data were processed

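RNA was extracted with miRNEasy kits, made into libraries with TruSeq Total RNA kits and sequenced on a HiSeq-2000, per the labels' protocols. Per the file headers, each tissue has 1 deposited table of counts by RefSeq transcript, not normalized, with a column for every library. Deposited columns at 0.22 and 0.67 mmol/kg carry a decimal dose line and were typed here under estimated counts (the unit expected_counts), although every value was whole and rounding changed none. Build mm10 and the tools HTSeq, TopHat2 2.0.10 and CASAVA 1.8.2 are listed without roles in the submitters' processing notes. Annotation version and strand setting are not given in the sources used here. Reads on the ambiguous line (19.68 to 22.55% of a library) and on the no-feature line (14.29 to 27.53%) were left out of totals and tests, and 0 columns of other samples were present.

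The 33392 transcripts were summed to 24122 genes. Levels are CPM on TMM-scaled totals over all 58 libraries. Tests used edgeR 4.0.16 (R 4.3.3) with TMM within the fit, filterByExpr and a robust quasi-likelihood fit, two-sided, with Benjamini-Hochberg adjustment over all tested genes and calls under 0.05. All 10 groups of a tissue shared 1 fit, dose trends used rank, and comparisons between tissues used all libraries. Correlations used log2 CPM with a prior count of 2 minus group means, 100000 permutations within groups, two-sided. The code was tested on simulated counts. Alternatives were DESeq2 1.42.0, its size factors, no filter, a replicate block, 1 transcript per gene, length and GC covariates, pooled vehicles, PCE set directly against TCE, the compared groups alone, dose in mmol/kg, a prior count of 0.5 and leaving out each library.

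The members and lists were chosen with earlier results of these data known. All members are named in every comparison, along with up to 3 called list genes per direction at 6 mmol/kg and the 10 genes most like Fos, predicted names left out. A gene that this rule names is not reported. Promoters come from RefSeq (GRCm38.p6), whose table held 7 members outside the chromosome of Egr1. Labels do not say that replicates are separate animals, so the p-values reflect only how these libraries vary. The 56 replicate pairs all differed by more than sampling noise (lowest chi-square 14.6 per degree of freedom).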

Additional observations from a re-analysis of the deposited data

How the results depend on the processing

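The number of members called in the 31 comparisons was recomputed 506 times and was unchanged or within 1.5 times in 493. In liver at 6 mmol/kg PCE it was 0 instead of 1 with length and GC slopes as covariates or with only the groups compared, and 0 to 1 when single libraries were left out. In the PCE trend in liver it was 0 with those covariates, 2 with the replicate block, where Jun was added (−0.27 per rank, adjusted p = 0.0492), and 0 to 1 without single libraries. It was 2 at 2 mmol/kg PCE in liver and 1 at 6 mmol/kg PCE in kidney with pooled vehicle groups, and for PCE minus TCE at 0.67 mmol/kg in liver it was 1 with DESeq2 and 0 to 1 without single libraries. Between the vehicle tissues it was 3 instead of 7 with the covariates. The cause was not tested. Fosb at 2 mmol/kg PCE in liver ranged from −1.58 (without dose replicate 3) to 4.15 (without vehicle replicate 3). The correlation with Fos in liver became 0.50 for Fosb, 0.29 for Atf3 and −0.19 for Ier3 without the 2 farthest libraries.

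The replicate block left Klf6 at 6 mmol/kg PCE in liver at 1.10 (adjusted p = 0.0286) and changed no call other than that of Jun. Replicate numbers were not treated as pairs, since in none of the 16 dose comparisons were all correlations of same-numbered deviations over 0.1 (range −0.653 to 0.59). With 2 or 3 pairs per comparison this check cannot show that pairing is absent. Counts over all genes moved more than 1.5 times under several alternatives, in liver at 6 mmol/kg PCE between 10 (only the groups compared) and 1613 (pooled vehicles), against 770.

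Groups of 2 or 3 libraries and the wide spread of Fos, Fosb and Egr1 limit what can be detected, since the 95% interval of Fos in liver at 6 mmol/kg PCE covers −1.58 to 1.81.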
